A study of Mus musculus with 8 samples.

Results

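The genes described here are 10 genes of mural cells, the contractile cells that wrap blood vessels, and they were measured in lung endothelial cells (EC) of tumor-bearing mice given either AB-Tie1-39, an antibody that blocks the orphan receptor Tie1, or control IgG. They were chosen by name: 6 genes of the smooth muscle contractile apparatus (Acta2, Tagln, Myh11, Cnn1, Myl9 and Des) and 4 genes used as pericyte markers (Pdgfrb, Cspg4, Rgs5 and Notch3), of 19505 genes with a symbol on the array. Each of the 10 had 1 probe set. LLC cells, a mouse Lewis lung carcinoma line, had been injected under the skin of C57BL/6N mice aged 8 weeks, and AB-Tie1-39 or IgG was given into the peritoneum 2 times per week. Viable lung EC were sorted as CD31+ CD45-, with LYVE1, PDPN and Ter119 also absent, and RNA of each mouse was hybridized to 1 Clariom S mouse array, a 1-colour array, giving 4 arrays from AB-Tie1-39-treated and 4 from IgG-treated mice, named below by the replicate number of their labels. All 8 mice carried a tumor, and no mural cell marker was part of the gate. For 3 samples titled as treated with anti-TIE1, another label field has a different number after anti-TIE. That number changes from sample to sample, and the title was followed. Likewise the labels' protocol text speaks of liver where the sample source is lung. The values are deposited intensities on the log2 scale, on which a difference of 1 is a doubling.

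Pericytes sit on capillaries inside the basement membrane they share with EC, and smooth muscle cells ring arteries, arterioles and veins. EC recruit both by secreting PDGF-B, which binds PDGFRB on the mural cell, and keep them differentiated through Notch ligands that act on NOTCH3. The contractile genes are switched on by serum response factor (SRF) with its coactivators myocardin and the MRTFs, which bind CArG boxes in the promoters of these genes. The sort gate selects EC, so a mural cell transcript in these samples can come from mural cells that remained attached to EC or from low transcription in EC themselves, which was not tested. The arrays measure bulk RNA, in which fewer mural cells and less RNA per mural cell cannot be told apart.

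None of the 10 genes passed the test of AB-Tie1-39 against IgG after adjustment over all probe sets. At an adjusted p under 0.05 (limma, Benjamini-Hochberg) 0 of 10 were called, as were 0 of all 22202 probe sets tested (0%). At an unadjusted p under 0.05, Acta2 was higher and Myl9 lower in AB-Tie1-39-treated mice, 2 of 10 genes, where 5.32% of all probe sets reached this level, 2.17% of them as higher and 3.15% as lower. Both belong to the contractile genes, and they pointed in opposite directions. The call of Acta2 was lost when the arrays' hybridization controls, described below, entered limma as a block (unadjusted p = 0.0539), and that of Myl9 was kept (unadjusted p = 0.0275). With the replicate number as a block, both calls were lost (unadjusted p = 0.0515 for Acta2 and 0.0566 for Myl9, limma). Groups did not overlap for 1 of the 10 genes, Myl9, against 3.17% of all probe sets.

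Most of these genes were measured near the array's background controls. Across the 8 arrays, 4 of the 10 (Acta2, Tagln, Myl9 and Notch3) averaged at or above the median of all probe sets, 7.54. The array carries 23 groups of background control probes, binned by base composition, which averaged 5.63 to 7.87 with a median of 6.28. Of the 10 genes, 6 averaged above the upper quartile of the bins, 7.31. No gene was set against the bin of its own base composition. Acta2, Tagln and Myl9 averaged above the highest of these bins, as did 40.3% of all probe sets, and the 7 others lay within the range of the bins. Against the 5059 negative control probe sets, which had a median of 6.82 and an upper quartile of 7.52, 5 of the 10 genes (these 3, Myh11 and Notch3) averaged above the upper quartile and 0 above the highest, 13.2. All 11 endothelial markers measured averaged above the highest background bin. Pecam1, which encodes CD31, measured 11.91 ± 0.02 in AB-Tie1-39-treated and 11.92 ± 0.04 in IgG-treated mice (SD, n = 4 each). Tie1, the target of the antibody, measured 11.00 ± 0.11 with AB-Tie1-39 and 11.06 ± 0.20 with IgG (SD, n = 4 each; adjusted p = 0.987, limma). Of the genes whose proteins were gated out, Lyve1 measured 11.95 to 12.08 with AB-Tie1-39 and 11.75 to 12.12 with IgG, Pdpn 8.09 with AB-Tie1-39 and 8.26 with IgG, and Ptprc (CD45) 7.67 with AB-Tie1-39 and 7.73 with IgG. Where background signal remains in an intensity, the fold change of a dim gene is understated. How much remains in the deposited values was not tested.

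Acta2, which encodes smooth muscle α-actin, the most widely used marker of smooth muscle cells, measured 8.00, 8.06, 8.14 and 8.09 on arrays 1 to 4 of AB-Tie1-39-treated mice and 7.69, 7.98, 7.78 and 8.03 on arrays 1 to 4 of IgG-treated mice. Of the AB-Tie1-39 arrays, 3 were above every IgG array, and the remaining one, array 1, was below IgG array 4. The difference was 0.20 (SE 0.09, 95% interval 0.007 to 0.40), a 1.15-fold higher level with AB-Tie1-39 (unadjusted p = 0.0437, adjusted p = 0.931, limma; exact two-sided permutation p = 0.0571). The spread over mice was wider among IgG arrays (SD 0.16) than among AB-Tie1-39 arrays (SD 0.06). With 4 arrays against 4 there are 70 arrangements, and the smallest exact p they allow is 0.0286.

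Myl9, the regulatory light chain of smooth muscle and nonmuscle myosin, went the other way. It measured 8.04, 7.97, 7.85 and 7.97 in AB-Tie1-39-treated mice and 8.13, 8.16, 8.14 and 8.10 in IgG-treated mice. All 4 AB-Tie1-39 arrays lay below all 4 IgG arrays, and the highest of them was 8.04 against an IgG minimum of 8.10. The difference was −0.18 (SE 0.07, 95% interval −0.33 to −0.03), a 1.13-fold lower level with AB-Tie1-39 (unadjusted p = 0.0247, adjusted p = 0.912, limma; exact two-sided permutation p = 0.0286). Myl9 was also among the steadiest probe sets on the array, with a within-group SD of 0.058, at the 5.22th percentile of all probe sets, so that a small gap separated the groups. Leaving out 1 array at a time kept the sign of both genes. Acta2 stayed at an unadjusted p under 0.05 in 3 of 8 such fits (without AB-Tie1-39 array 1, IgG array 2 or IgG array 4) and Myl9 in 6 of 8 (all but those without AB-Tie1-39 array 3 or IgG array 2), and the smallest adjusted p was 0.765 for Acta2 and 0.826 for Myl9 (limma).

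**Figure D1:**
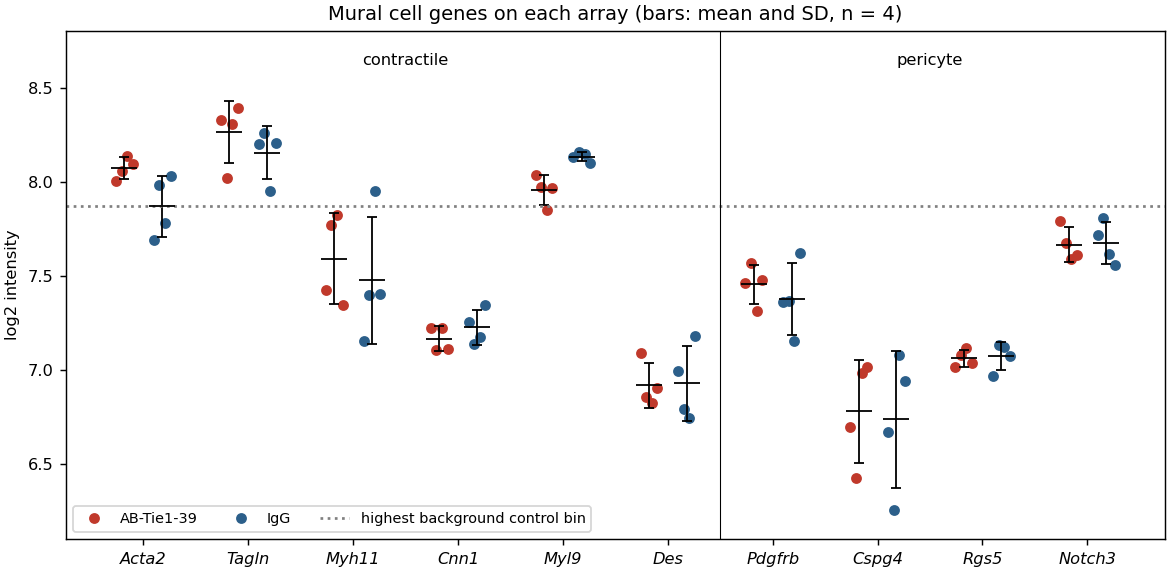
Log2 intensity of the 10 genes on each array (vertical axis), with AB-Tie1-39 in red left of IgG in blue, arrays 1 to 4 from left to right within a group; horizontal bars are means and whiskers SD (n = 4). The groups separate for Myl9 alone, and the dotted line marks the highest background control bin, 7.87.

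The promoters of Myl9 and Acta2 are shown because these genes differed in opposite directions at an unadjusted p under 0.05, while both are textbook targets of SRF. Sequences are from RefSeq (build GRCm38.p6) and give the 250 bases before the annotated start, 5′ to 3′ on the coding strand, with CArG boxes in capitals: for Myl9 the box that fits the motif exactly (chr2:156775214-156775463, plus strand), and for Acta2 the boxes that differ from it by 1 letter (chr19:34255374-34255623, minus strand).
Myl9: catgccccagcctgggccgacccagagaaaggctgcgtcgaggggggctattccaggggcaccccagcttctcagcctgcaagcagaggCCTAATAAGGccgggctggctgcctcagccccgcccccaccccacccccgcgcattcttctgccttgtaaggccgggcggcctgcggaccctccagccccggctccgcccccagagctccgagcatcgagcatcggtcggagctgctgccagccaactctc
Acta2: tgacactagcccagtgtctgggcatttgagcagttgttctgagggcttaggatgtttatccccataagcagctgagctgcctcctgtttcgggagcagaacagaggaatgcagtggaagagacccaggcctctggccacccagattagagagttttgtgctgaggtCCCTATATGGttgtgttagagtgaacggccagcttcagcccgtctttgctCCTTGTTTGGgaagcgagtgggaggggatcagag
In a window from 250 bases before to 50 bases after the start, the exact CArG box, which reads as the same motif on both strands, was found in Myl9 alone among the 7 of 10 genes with an entry in the promoter table (Acta2, Cnn1, Myl9, Des, Cspg4, Rgs5 and Notch3). Its first base lies 161 bases before the start. Of 32851 promoters in the table, 1.63% hold such a box. A box with 1 letter off was found in 3 of the 7 genes, in Myl9 at 99 bases, in Cspg4 at 238 and at 237 bases (overlapping matches) and in Acta2 at 84 and 34 bases before the start, against 19.9% of all promoters. These matches describe letters within these windows.

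The remaining contractile genes differed by less than the spread between mice. Tagln encodes transgelin, an actin-binding protein of smooth muscle. It measured 8.33, 8.02, 8.31 and 8.39 in AB-Tie1-39-treated mice and 8.20, 8.26, 7.95 and 8.20 in IgG-treated mice, a difference of 0.11 (SE 0.10, 95% interval −0.12 to 0.33; adjusted p = 0.975, limma). Of the AB-Tie1-39 arrays, 3 were above every IgG array, and array 2 was below 3 of the IgG arrays.

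Myh11, the myosin heavy chain found in differentiated smooth muscle, had the widest spread of the contractile genes. Its values were 7.42, 7.77, 7.82 and 7.34 in AB-Tie1-39-treated mice and 7.15, 7.40, 7.95 and 7.40 in IgG-treated mice. The highest and the lowest of the 8 arrays were both from IgG-treated mice. Its within-group SD of 0.29 was at the 94.6th percentile of all probe sets, and the difference was 0.12 (SE 0.17, 95% interval −0.26 to 0.49; adjusted p = 0.987, limma).

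Cnn1 encodes calponin, an actin-bound inhibitor of myosin ATPase in smooth muscle. It measured 7.22, 7.11, 7.22 and 7.11 with AB-Tie1-39 and 7.25, 7.13, 7.17 and 7.34 with IgG, and the groups overlapped. The difference was −0.06 (SE 0.07, 95% interval −0.22 to 0.10; adjusted p = 0.979, limma). Des encodes desmin, the muscle intermediate filament, which is also used as a stain for pericytes. Its arrays read 7.09, 6.85, 6.82 and 6.90 with AB-Tie1-39 and 6.99, 6.79, 6.74 and 7.18 with IgG, and both ends of the range were again IgG arrays. Its means, 6.92 ± 0.12 with AB-Tie1-39 and 6.93 ± 0.20 with IgG (SD, n = 4 each), differed by −0.01 (SE 0.11, 95% interval −0.25 to 0.23).

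No pericyte gene differed between the treatments beyond the spread over mice, and 0 of 4 reached an unadjusted p under 0.05. Pdgfrb, the receptor for PDGF-B, measured 7.46, 7.57, 7.31 and 7.48 in AB-Tie1-39-treated mice and 7.36, 7.37, 7.15 and 7.62 in IgG-treated mice. Again the lowest and the highest arrays were both from IgG-treated mice. Its difference was 0.08 (SE 0.10, 95% interval −0.15 to 0.31; adjusted p = 0.983, limma).

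Rgs5, a regulator of G protein signaling that is abundant in pericytes, was nearly flat over all 8 arrays. Its values were 7.01, 7.08, 7.11 and 7.04 with AB-Tie1-39 and 6.97, 7.13, 7.12 and 7.07 with IgG, and its within-group SD of 0.063 was at the 6.59th percentile. The difference was −0.01 (SE 0.07, 95% interval −0.16 to 0.14), on a probe set within the background range. Notch3, the Notch receptor of mural cells, measured 7.79, 7.67, 7.59 and 7.61 with AB-Tie1-39 and 7.71, 7.81, 7.62 and 7.55 with IgG, a difference of −0.01 (SE 0.08, 95% interval −0.19 to 0.17). In both groups arrays 1 and 2 were the higher for this gene.

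Cspg4 encodes the NG2 proteoglycan, a surface marker of pericytes. It was the most variable of the 10 genes, with a within-group SD of 0.32 at the 96.4th percentile of all probe sets. It measured 6.69, 6.42, 6.98 and 7.01 in AB-Tie1-39-treated mice and 6.67, 6.25, 7.08 and 6.94 in IgG-treated mice. In both groups the arrays numbered 1 and 2 were low and those numbered 3 and 4 high, while the treatments differed by 0.04 (SE 0.18, 95% interval −0.37 to 0.45; adjusted p = 0.996, limma). The spike-in hybridization controls split the arrays across these numbers: they averaged 10.40 to 10.51 on arrays 3 and 4 of AB-Tie1-39 and 1 and 2 of IgG, and 10.79 to 11.05 on the other 4. Within the arrays with low controls Cspg4 was higher by 0.53 with AB-Tie1-39, and within those with high controls it differed by −0.45. For Acta2 these values were 0.28 and 0.13, and for Myl9 −0.24 and −0.12, with low and with high controls.

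**Figure D2:**
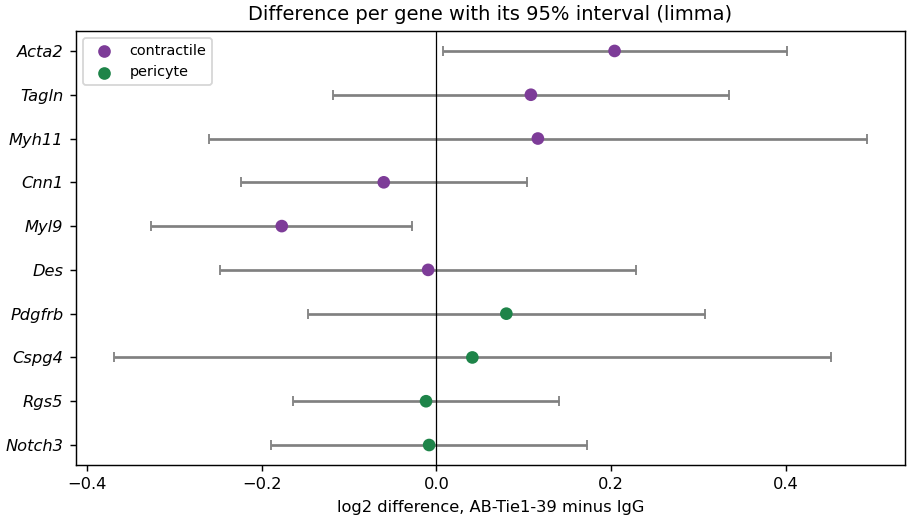
Log2 difference of each gene (AB-Tie1-39 minus IgG, horizontal axis) with its 95% interval from limma, contractile genes in purple above pericyte genes in green. The unadjusted intervals of Acta2 and Myl9 leave out 0, and those of the other 8 genes include it.

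The 95% intervals give the precision of the measured intensities. For the 3 genes above the highest background bin they ran from 1.00-fold to 1.32-fold for Acta2, from 0.921-fold to 1.26-fold for Tagln and from 0.798-fold to 0.981-fold for Myl9. For the 7 genes within the background range they do not limit the change of the transcript, and no fold is given for them. The median SE over all probe sets was 0.0956, and 8 of the 10 genes had an SE of 0.07 to 0.11, the exceptions being Myh11 and Cspg4.

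Contractile genes were next set against pericyte genes within each array. The mean of the 6 contractile genes was 7.68, 7.63, 7.69 and 7.63 in AB-Tie1-39-treated mice and 7.57, 7.62, 7.62 and 7.71 in IgG-treated mice, a difference of 0.03. IgG array 4 was the highest and IgG array 1 the lowest. The mean of the 4 pericyte genes was 7.24, 7.18, 7.25 and 7.28 with AB-Tie1-39 and 7.18, 7.14, 7.24 and 7.30 with IgG, also a difference of 0.03, and the extremes were again IgG arrays. The contractile mean minus the pericyte mean was 0.42 ± 0.05 in AB-Tie1-39-treated and 0.42 ± 0.04 in IgG-treated mice (SD, n = 4 each), a difference of 0.005, less than the spread between mice. No test was run on these means, because the genes were picked with results of these arrays known. Counted by direction, 3 of 6 contractile and 2 of 4 pericyte genes were higher with AB-Tie1-39, against 48.3% of all probe sets. The median difference was 0.05 over the contractile and 0.02 over the pericyte genes, against −0.004 over all probe sets.

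**Figure D3:**
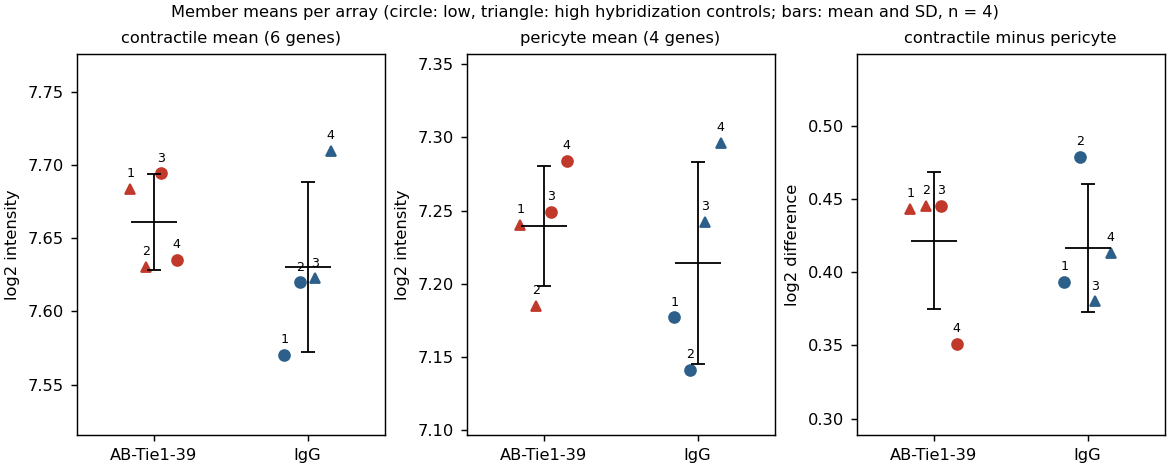
Mean log2 intensity of the 6 contractile genes, of the 4 pericyte genes, and their difference (vertical axes) on each array, labelled by replicate number, with AB-Tie1-39 left of IgG; circles and triangles are arrays with low and high hybridization controls, and bars show the mean and SD (n = 4). The groups overlap in every panel, and AB-Tie1-39 array 4 lies apart from the other 3 in the difference.

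The 10 genes did not vary together from array to array. After the group means were removed, Pearson's r over the 8 arrays had a median of −0.05 over the 45 pairs, with 5 pairs above 0.5 and 5 below −0.5. These values describe 8 arrays that share 1 normalization, and most of the genes lie within the range of background controls. Within the contractile genes the median over 15 pairs was 0.06, and within the pericyte genes all 6 pairs were negative, with a median of −0.24. Pairs across the classes had a median of 0.07 over 24 pairs. Markers of some other cell types had higher medians, with 0.65 over 28 pairs of alveolar type 2 cell markers and 0.46 over 15 pairs of platelet markers. Even so, 12 of these 28 pairs were negative, down to −0.56, and 4 of the 15, down to −0.49. No further list was compared in this way. Among the 10 genes the highest r was 0.78, for Cnn1 with Des, followed by 0.74 for Myh11 with Rgs5 and 0.72 for Des with Pdgfrb. The lowest were −0.78 for Cspg4 with Notch3 and −0.75 for Tagln with Myh11.

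**Figure D4:**
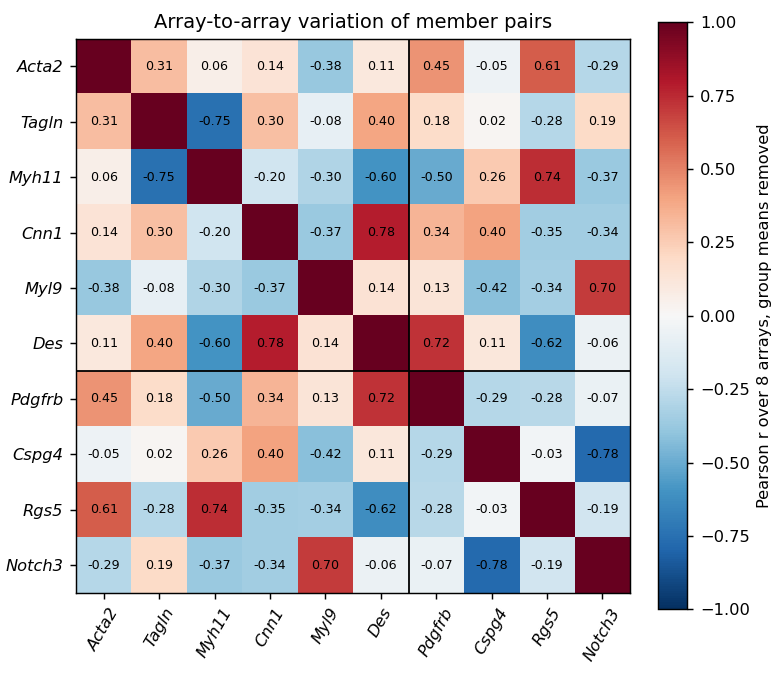
Pearson's r over 8 arrays, group means removed, for every pair of the 10 genes (colour scale from −1, blue, to 1, red, with values printed); lines part the contractile from the pericyte genes. No block of the matrix is of 1 colour apart from the pericyte block, where all 6 pairs are below 0.

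The genes whose array-to-array pattern was most like that of the members were on neither mural list. Among 9639 genes at or above the median level, those closest to the contractile mean (Pearson's r over 8 arrays, group means removed) were Adgrd1 (0.967), Raph1 (0.957), Ctnnbip1 (0.955), Pramel29 (0.952), Noto (0.943), Ybx1 (0.942), Zfp965 (0.941) and Oit3 (0.938). Closest to the pericyte mean were Fancg (0.981), Mtss2 (0.981), Ctla2b (0.975), Art5 (0.970), Selenok (0.969), Abcc6 (0.967), Dlgap4 (0.965) and Inka2 (0.964). Other genes of the contractile list reached r of −0.65 (Tpm1) to 0.70 (Actg2) with the contractile mean, with a median of 0.30 over 21 genes. With the pericyte mean, the median over the same 21 genes was higher, at 0.48. Other pericyte genes reached −0.62 (Gucy1b1) to 0.82 (Cox4i2) with the pericyte mean, with a median of −0.07 over 20 genes. With the contractile mean, the median over these 20 genes was −0.05. With 8 arrays and this many genes some values of r are high in any case, and nothing about function is read from them.

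A wider list of 23 contractile smooth muscle genes, 21 of them measured, was also split between the directions. For this list and those below, 48.3% of all probe sets being higher is the share to compare with. Of these, 11 were higher and 10 lower with AB-Tie1-39, 0 reached an unadjusted p under 0.05, and the median difference was 0.02. Mustn1, a small muscle nuclear protein, had the smallest p of the list, with 8.99 ± 0.18 in AB-Tie1-39-treated and 8.75 ± 0.14 in IgG-treated mice (SD, n = 4 each; adjusted p = 0.932, limma). Csrp1, a LIM protein of smooth muscle, differed by −0.19, Actn1, an actin crosslinker, by 0.21, and Mylk, the myosin light chain kinase that phosphorylates the protein made by Myl9, by 0.16. Actn1, Mylk and Csrp1 are also expressed outside smooth muscle. The largest difference in the list was 0.25 (SE 0.22), for the integrin gene Itga8.

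Of 23 other pericyte genes, 20 were measured, 7 were higher and 13 lower with AB-Tie1-39, 0 reached an unadjusted p under 0.05, and the median difference was −0.04. Ebf1, a transcription factor of pericytes and B cells, averaged 9.05 ± 0.22 with AB-Tie1-39 and 9.40 ± 0.33 with IgG (SD, n = 4 each; adjusted p = 0.947, limma). For Ebf1 the IgG arrays 1 to 3 measured 9.51 to 9.62, and IgG array 4 measured 8.91, within the range of the AB-Tie1-39 arrays. Pdzd2, a PDZ domain protein, differed by 0.21, Vtn, which encodes vitronectin and is used as a pericyte marker in brain, by −0.17, and Lamc3, a laminin chain, by −0.09. Cox4i2, a lung-enriched subunit of cytochrome c oxidase that is high in pericytes, measured 8.19, 8.47, 8.40 and 9.08 in AB-Tie1-39-treated mice and 8.30, 8.08, 8.45 and 9.46 in IgG-treated mice. Array 4 was the highest in both groups for this gene, and the difference was −0.04 (SE 0.28).

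A list of signals between EC and mural cells, ligands and receptors together, had 21 of 22 genes measured, and 18 of them averaged above the highest background bin. With AB-Tie1-39, 8 of the 21 were higher and 13 lower, 0 passed the adjusted test, and the median difference was −0.01. Pdgfb, the ligand that recruits pericytes, measured 8.73, 8.85, 8.26 and 8.59 in AB-Tie1-39-treated mice and 8.79, 8.74, 8.65 and 8.44 in IgG-treated mice, overlapping over most of their range (difference −0.05, SE 0.13). The Notch ligand genes Jag1 and Jag2 differed by 0.13 and 0.16, and the endothelin receptor gene Ednrb by −0.17. Hbegf, an EGF family ligand that acts on mural cells, averaged 8.54 ± 0.12 with AB-Tie1-39 and 8.83 ± 0.19 with IgG (SD, n = 4 each), a difference of −0.29 (SE 0.11; unadjusted p = 0.0208, adjusted p = 0.897, limma). Egfr, which encodes its receptor, differed by −0.23 (SE 0.08; unadjusted p = 0.019, adjusted p = 0.897, limma). Egfr averaged 7.35, below the median of all probe sets and within the range of the background bins. Hbegf and Egfr were 2 of 21 genes at an unadjusted p under 0.05, both lower, where 3.15% of all probe sets reached this level as lower.

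Of the regulators of the contractile program, 10 of 11 were measured, 3 were higher and 7 lower with AB-Tie1-39, and the median difference was −0.04. Srf measured 9.62 ± 0.20 with AB-Tie1-39 and 9.67 ± 0.05 with IgG (SD, n = 4 each), and the coactivator gene Mrtfa differed by −0.04. Myocd, which encodes myocardin, the muscle-restricted coactivator, averaged 6.66 with AB-Tie1-39 and 6.69 with IgG, below the median of all probe sets. Elk1, a cofactor of SRF, differed by 0.10, and Rhoa, a GTPase upstream of the MRTFs, by −0.10.

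Gata6, a transcription factor of vascular smooth muscle that is also expressed in EC and lung epithelium, had the most negative difference of the regulators. It measured 7.41, 7.58, 7.59 and 7.42 in AB-Tie1-39-treated mice and 7.64, 8.05, 7.96 and 7.97 in IgG-treated mice. All 4 AB-Tie1-39 arrays lay below all 4 IgG arrays, and 3.17% of all probe sets had no overlap in either direction. Gata6 averaged 7.70 over the 8 arrays, within the range of the background bins. The difference was −0.40 (SE 0.10; unadjusted p = 0.00212, adjusted p = 0.715, limma; exact two-sided permutation p = 0.0286). The mean over the 10 regulators, which includes Gata6, was 9.07 to 9.12 on the AB-Tie1-39 arrays and 9.15 to 9.17 on the IgG arrays. These ranges did not overlap, and no test was run. Gata6 weighs heavily in this mean, since the next most negative difference was −0.10, for Rhoa, and the median over the list was −0.04. The mean was not taken without Gata6, so it does not describe the regulators as a set.

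**Figure D5:**
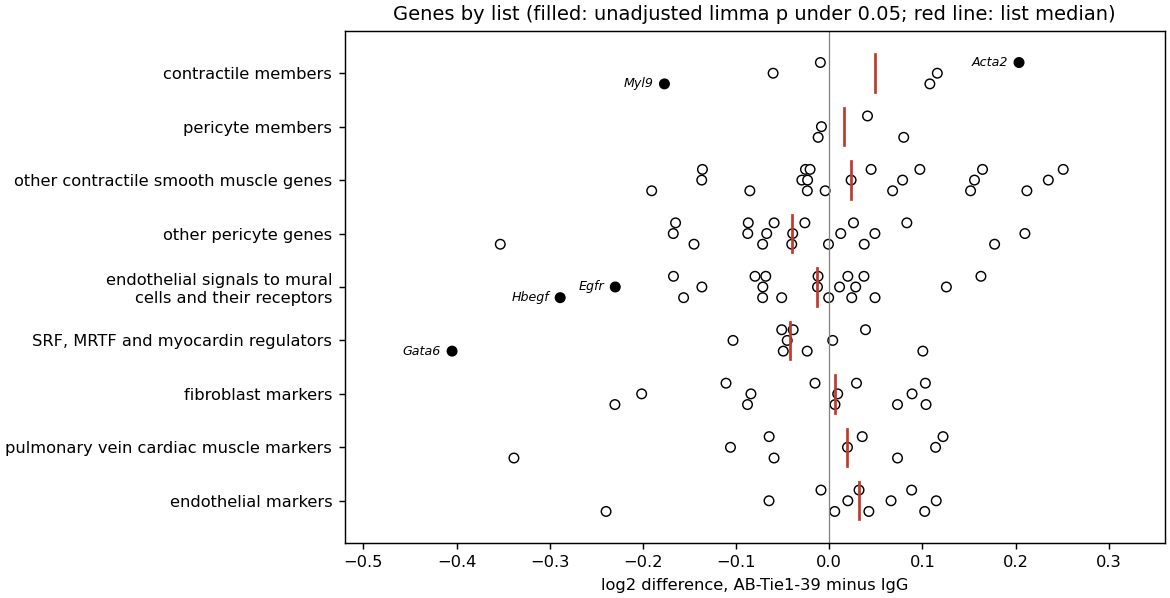
Log2 difference (AB-Tie1-39 minus IgG, horizontal axis) of every measured gene in 9 lists, 1 circle per gene, filled where the unadjusted limma p was under 0.05, with the list median as a red line. The lists spread around 0, and 5 of the genes plotted are filled: Acta2, Myl9, Hbegf, Egfr and Gata6.

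Markers of other cells that a lung EC sort could hold were listed beside the mural genes. Fibroblast markers (13 of 14 measured) had 7 higher and 6 lower with AB-Tie1-39, with a median difference of 0.01 and 0 at an unadjusted p under 0.05. Among them Npnt, a matrix protein, differed by −0.23 and Dcn, decorin, by 0.09. The 9 markers of the cardiac muscle that sheathes pulmonary veins and shares contractile genes with smooth muscle had 5 higher and 4 lower, with 0 at an unadjusted p under 0.05, and their list mean per array was 7.37 to 7.50 with AB-Tie1-39 and 7.38 to 7.57 with IgG. Skeletal muscle markers had 3 higher and 4 lower of 7. Of these, 1, the α-actin gene Acta1, was lower at an unadjusted p under 0.05 (−0.32), as were 3.15% of all probe sets. Acta1 averaged 7.22, below the median of all probe sets, and 0 of the 7 averaged above the highest background bin. Mesothelial markers had 4 higher and 2 lower of 6, with 0 at an unadjusted p under 0.05 and 0 at or above the median level.

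Markers of alveolar type 2 cells, platelets and lymphatic EC had larger median differences, of 0.34, −0.51 and −0.40, than the mural genes. All these lists were chosen with earlier results of these data known, and this contrast was not tested. Over all probe sets, 2.17% reached an unadjusted p under 0.05 (limma) as higher and 3.15% as lower. Alveolar type 2 cell markers were higher for 7 of 8, 4 of them at an unadjusted p under 0.05. Their list mean was 8.84 to 9.31 on the AB-Tie1-39 arrays and 8.45 to 9.00 on the IgG arrays. Platelet markers were lower for 5 of 6, 4 of them at an unadjusted p under 0.05, with a list mean of 8.53 to 8.77 with AB-Tie1-39 and 8.69 to 9.38 with IgG. Lymphatic EC markers were lower for 5 of 7, 4 of them at an unadjusted p under 0.05, with a list mean of 9.02 to 9.09 with AB-Tie1-39 and 9.14 to 9.51 with IgG. Leukocyte markers were lower for 4 of 7, 2 of them at an unadjusted p under 0.05, alveolar type 1 markers for 2 of 4 with 0 at that level, and the 1 erythroid marker measured differed by −0.23. No gene of any of these lists passed the adjusted test. The part of these cells in the values of Acta2 and Myl9 was not tested.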

How the data were processed

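Each array's deposited values are linear intensities that the authors had normalized by a method not given in the sources used here, and the median intensity lay between 184 and 189.6 on the 8 arrays. Log2 of these values was fitted with limma (version 3.58.1, R 4.3.3; eBayes without trend, AB-Tie1-39 minus IgG), with Benjamini-Hochberg adjustment over 22202 probe sets. Left out were 6923 controls and 4 probe sets with missing values. Samples were grouped by title. The table held 0 columns of other samples.

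The brightest probe set stood for a gene, with symbols from the platform's annotation. The members and lists were chosen with earlier results of these data known. Besides the 10 members, up to 4 genes per list were named by smallest unadjusted p at or above the median level, and the 8 genes closest to each member mean. Egfr, Acta1, Pdgfb, Srf, Myocd, Itga8, Cox4i2 and the genes at the ends of ranges of r were chosen after their values were seen. Alternatives covered normalization, array weights, the removal of dim probe sets, how the variance was modelled, blocks, each array left out, the exact Mann-Whitney test and the summary over members. Values within arrays of low or high hybridization controls were added after seeing the data. Array brightness is no count, and the number of arrays limits the precision.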

Additional observations from a re-analysis of the deposited data

Results flagged for a closer look

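In 12 of 124 groups of 4 arrays, 1 array lay far from the other 3, with a gap to its nearest neighbour that took more than 0.829 of the group's range. Chance flags about 1 in 20 groups. Among the mural genes and their means this was the case once: for the contractile minus pericyte mean, AB-Tie1-39 array 4 lay below the other AB-Tie1-39 arrays, with a gap of 0.978 of the range. None of the 10 genes alone was flagged. In the other lists, IgG array 2 was low for Mustn1 (0.934) and for Elk1 (0.947), IgG array 3 was low for Csrp1 (0.898) and AB-Tie1-39 array 3 was low for Lamc3 (0.925). IgG array 4 lay apart from the other IgG arrays for Ebf1 (0.848), Vwf (0.874) and Tmem100 (0.864). The remaining values were AB-Tie1-39 array 4 for Actc1 (0.945) and Ager (0.844), AB-Tie1-39 array 1 for Ptprc (0.905) and AB-Tie1-39 array 2 for Ppbp (0.859).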

How the results depend on the processing

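No member passed an adjusted p under 0.05 under any setting run, and Acta2 stayed higher and Myl9 lower in all of them. The other members have differences near 0, and several changed sign. With quantile normalization Des was at 0.0062 and Rgs5 at 0.0056, and with array weights Rgs5 was at 0.0058. Within the arrays with low hybridization controls Rgs5 was at 0.026, and within those with high controls Myh11 was at −0.077, Des at 0.0086, Cspg4 at −0.45 and Notch3 at 0.15. The pericyte mean differed by 0.11 within the low and −0.057 within the high controls. The contractile mean differed by 0.085 as a median over members, and the contractile minus pericyte difference was 0.053 with bright probe sets alone. The count of members at an unadjusted p under 0.05 was 1, Myl9, when the hybridization controls were a block, and 1, again Myl9, by the exact Mann-Whitney test.

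The replicate number as a block left 0 members at an unadjusted p under 0.05 (limma, Acta2 0.0515 and Myl9 0.0566). Whether the numbers pair the arrays is not known. Over all probe sets, deviations of same-numbered arrays correlated by −0.05 to 0.0066. Such values cannot exclude a pairing that affects some genes, and for Cspg4 same-numbered arrays moved alike in both groups.

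Leaving out 1 array at a time, the contractile mean ranged from 0.01 to 0.057, the pericyte mean from 0.0008 to 0.053 and their difference from −0.0071 to 0.028. Acta2 ranged from 0.14 (without IgG array 1) to 0.26 (without IgG array 4), Myl9 from −0.20 to −0.14, Tagln from 0.040 to 0.19, Myh11 from 0.0090 to 0.27 and Cnn1 from −0.091 to −0.021. Des ranged from −0.071 to 0.075, Pdgfrb from 0.0063 to 0.16, Cspg4 from −0.12 to 0.16, Rgs5 from −0.047 to 0.0087 and Notch3 from −0.051 to 0.037. Members at an unadjusted p under 0.05 numbered 0 to 2, with 0 without AB-Tie1-39 array 3. Probe sets past the adjusted test numbered 0 to 18, with 18 without IgG array 4, and none of them was a member.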
